A study of Mus musculus with 12 samples.

Results

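The abundance order of box H/ACA small nucleolar RNAs (snoRNAs) was described in untreated mouse embryonic stem cells, from 3 of the 12 samples of the series. The cells were E14TG2a, an established mouse embryonic stem cell line, and these libraries were the untreated controls of day 0. The series also holds retinoic acid-treated cells of this line and myoblasts and myotubes of C2C12, a mouse muscle line. None of their counts enter the shares of the estimated counts. The deposited small RNA table lists 72 families named SNORA, and the members are all of them: each family's value is its share of the summed SNORA counts of a library. Of the 72 families, 70 had counts in every untreated library and 2 had none in any. The labels name no genotype change and do not say whether the 3 samples came from separate cultures, so the spread between them may be technical. The table holds SNORA families only, so no stem cell marker gene was available in it to check the cell type label. A share says how a family's counts stand among those of the SNORA families, and the absolute amount of any of them is not measured. Whether all families were captured and copied equally well was not tested, so shares are of counts and not of molecules in the cell.

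Box H/ACA snoRNAs fold into paired hairpins followed by the short H and ACA boxes that give the class its name. They assemble with the pseudouridine synthase dyskerin and its partner proteins, and base pairing with ribosomal RNA places the enzyme at the uridine that is turned into pseudouridine. A few members act in the cleavage of the ribosomal RNA precursor instead. In mammals most are cut out of introns of host genes, many of which encode ribosomal proteins or are non-coding genes known mainly for the snoRNAs they carry.

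The libraries held 4995747, 3743671 and 4404195 estimated SNORA counts in replicates 1, 2 and 3. With these totals the counting error was small beside the difference between libraries. The coefficient of variation (CV, the SD divided by the mean) over the 3 libraries had a median of 28.1% over the 70 detected families, against a median of 0.723% from counting alone. No family had a CV below its counting error. Counting error was largest for the rarest families, with a CV of 5.10% for the lowest detected one, against 26.0% over the 3 libraries. SNORA38, the lowest detected family, had 225 counts in replicate 2, a share of 0.00601% with an exact (Clopper-Pearson) 95% interval of 0.00525% to 0.00685%, which covers counting error only.

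The SNORA counts were dominated by a small number of families. SNORA68, SNORA13 and SNORA26 together held 36.3%, 24.7% and 28.7% of the counts in replicates 1, 2 and 3. The 10 families of highest mean share held 62.9% ± 3.61 (SD, n = 3), and the 20 highest held 84.0% ± 1.34. An equal split over 72 families would give each 1.39%, while the median family had 0.375%. By mean share, 22 families reached 1%, 33 lay between 0.1% and 1%, 14 lay between 0.01% and 0.1%, and SNORA38 lay below that. The highest mean share was 1293 times the lowest detected one. The evenness of the pool can be given as an effective number of families, the number of equally abundant families with the same inverse Simpson index. It was 15.8, 21.2 and 18.5 in replicates 1, 2 and 3, so replicate 1 was the most concentrated library and replicate 2 the most even.

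**Figure D1:**
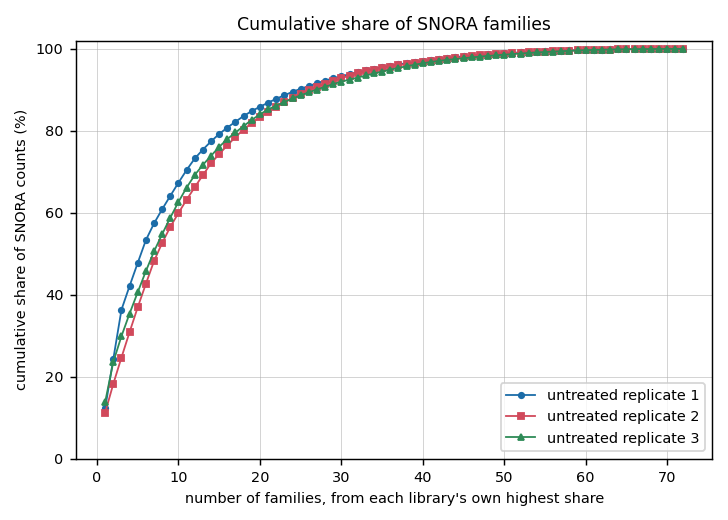
Cumulative share of SNORA counts (%, vertical axis) against the number of families, counted from each library's own highest family (horizontal axis), with 1 line for each untreated replicate. All 3 lines pass 80% before the 20th family, and replicate 3 is highest at the first family and replicate 1 from the second to the tenth.

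SNORA68 held 12.3%, 11.2% and 9.76% in replicates 1, 2 and 3. Its CV of 11.4% was the smallest among the 10 most abundant families. SNORA13, a guide of 18S ribosomal RNA, held 12.04%, 6.43% and 13.8%, with replicate 2 at 0.497 times the mean of the other two libraries. SNORA26, whose gene lies in the span of the non-coding gene Dancr (chr5:74093530-74093650, GRCm38.p6), held 12.01%, 7.03% and 5.15%, with replicate 1 well above the others. The first place therefore changed with the library: SNORA68 led in replicates 1 and 2 and SNORA13 in replicate 3. Mean shares were 11.1% ± 1.26 for SNORA68, 10.8% ± 3.86 for SNORA13 and 8.06% ± 3.55 for SNORA26 (SD, n = 3), and their ranges over the 3 libraries overlapped. Within each library, however, SNORA68 lay above SNORA26 in the estimated counts, while SNORA13 changed sides with both. Without replicate 2 SNORA13 came first, at 12.9% against 11.0% for SNORA68. SNORA68 and SNORA13 each lay above every family ranked from 4 to 70 in all 3 libraries, with no overlap of ranges.

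The place of SNORA26 also depended on the authors' scaling. In the deposited normalised counts SNORA26 held 19.5%, 9.48% and 6.15% of the untreated libraries, a mean of 11.7% ± 6.95 (SD, n = 3), and ranked first. This was 1.45 times its share of the estimated counts, the largest upward shift of any family, followed by 1.36 times for SNORA32. All 10 most abundant families stayed among the 10 highest in the normalised counts, and Spearman's rho between the orders was 0.999 over 70 families. That rho describes values from the same reads. The normalised counts were deposited together with those of the retinoic acid-treated cells, and whether these entered the scaling is not known.

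Behind these 3 families stood a group of close shares. SNORA73, also known as U17 and acting in cleavage of the ribosomal RNA precursor, held 5.82%, 4.43% and 6.30% in replicates 1, 2 and 3. SNORA40 held 3.27%, 6.06% and 5.53%, and SNORA21, placed by RefSeq inside Rpl23 (chr11:97781639-97781766), held 5.63%, 5.56% and 3.51%. The lowest library was thus a different one for each of them. SNORA2 was at 4.08%, 6.23% and 4.03%, with its RefSeq gene Snora2b in the span of Kansl2. SNORA51 was at 3.21%, 5.70% and 5.21%. SNORA28, a guide of 18S ribosomal RNA inside the translation factor gene Eif5 (chr12:111540946-111541067), was at 5.56%, 3.93% and 4.22%. These 6 families had means between 4.57% ± 0.867 and 5.51% ± 0.972 (SD, n = 3), and their ranges over the 3 libraries all overlapped. Within every library SNORA73 lay above SNORA28 and SNORA40 above SNORA51, while the other pairs changed order between libraries. SNORA44, the tenth family and an 18S guide from the non-coding host gene Snhg12, was at 2.81%, 2.96% and 4.81%, highest in replicate 3.

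Ranks 11 to 20 ran from SNORA3 (3.08% ± 0.838) through SNORA9 (2.87% ± 0.708), SNORA23 (2.79% ± 0.780) and SNORA62 (2.29% ± 0.544), all SD over 3 libraries. SNORA29 (2.27% ± 0.750), SNORA52 (2.19% ± 0.253), SNORA4 (1.61% ± 0.608) and SNORA33 (1.38% ± 0.371) came next. SNORA1 (1.32% ± 0.105) and SNORA22 (1.31% ± 0.105) closed the group. SNORA52, SNORA1 and SNORA22 had CVs of 11.5%, 7.99% and 8.04%, so they were about as steady as SNORA68 at much lower shares. SNORA3, SNORA52 and SNORA33 lie in the spans of the ribosomal protein genes Rpl27a, Rplp2 and Rps12. SNORA9 and SNORA23 are listed as guides of 28S ribosomal RNA.

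**Figure D2:**
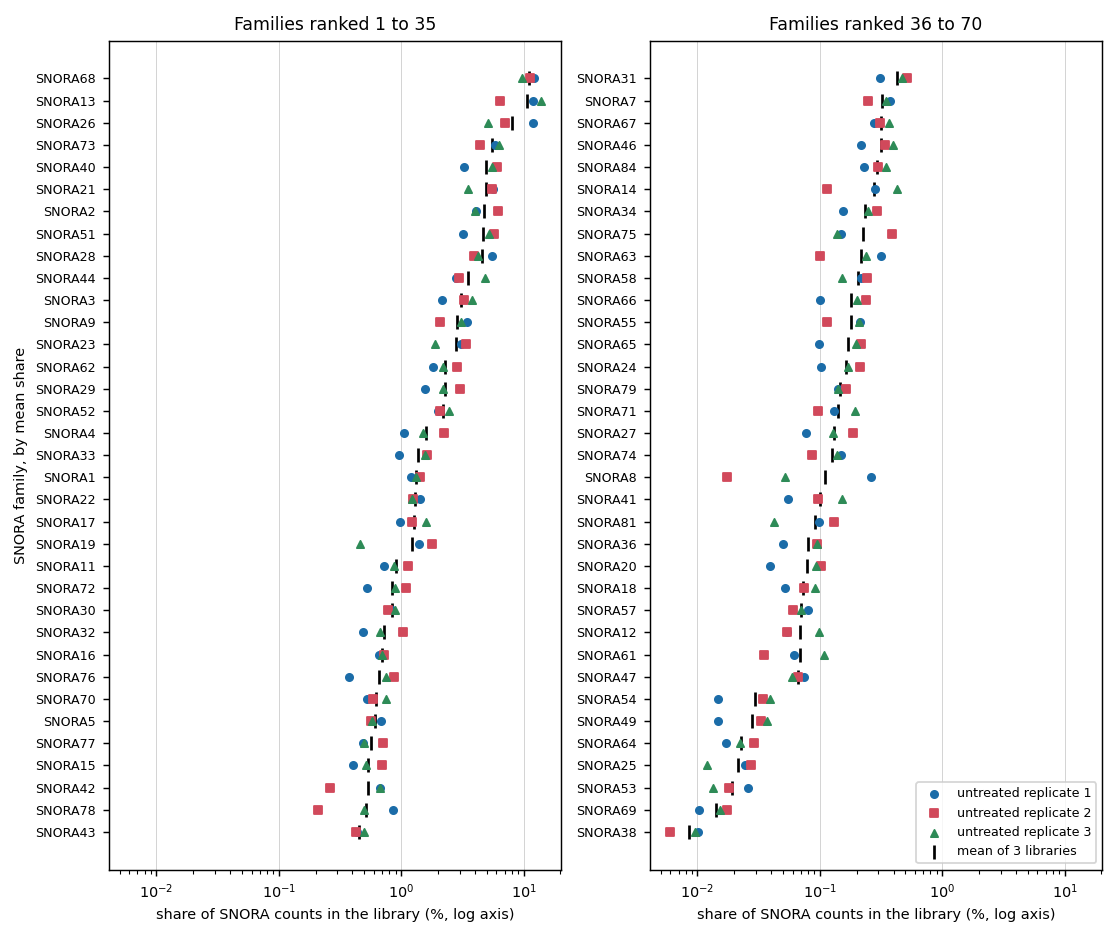
Share of SNORA counts (%, log axis) in each untreated replicate (coloured symbols) and their mean (black tick) for the 70 detected families, ordered by mean share in both panels. Neighbouring families overlap almost everywhere, and SNORA8 and SNORA78 show gaps between libraries that are wide beside those of their neighbours.

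The order was a broad gradient and not a ladder. Of 69 neighbouring pairs of detected families, 67 had overlapping ranges over the 3 libraries. The exceptions were SNORA47 (0.0594% to 0.0747%) above SNORA54 (0.0148% to 0.0394%), and SNORA69 (0.0103% to 0.0174%) above SNORA38 (0.00601% to 0.0101%). Neighbours with overlapping ranges can still keep 1 order within every library, as SNORA54 above SNORA49 did. Over all 2415 pairs of detected families, neighbours or not, 1980 (82.0%) did not overlap, so families far apart in the order kept their sides. A family's range overlapped that of a median of 11 other families. Between libraries Spearman's rho over the 70 detected families was 0.941 for replicates 1 and 2, 0.964 for 1 and 3 and 0.963 for 2 and 3, given as a description. Each library placed 9 of the 10 highest families in its own first 10, and 8 families were in the first 10 of every library. The first 20 places of every library shared 18 families, out of 22 that reached them in any library.

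At the bottom, SNORA38 held 0.0101%, 0.00601% and 0.00963% in replicates 1, 2 and 3, and it was the only detected family with the same rank in every library. SNORA69, whose gene lies inside Rpl39, had a mean of 0.0143% ± 0.00365, SNORA53 0.0192% ± 0.00632, SNORA25 0.0213% ± 0.00824 and SNORA64 0.0227% ± 0.00586 (SD, n = 3). SNORA64 also lies in a ribosomal protein gene, Rps2. SNORA35 and SNORA50 had 0 counts in all 3 libraries. A count of 0 allows a share of up to 6.01e-05%, 8.01e-05% and 6.81e-05% in replicates 1, 2 and 3, taking 3 counts as the limit for counting error. SNORA35 is known from brain, and RefSeq places its gene inside the serotonin receptor gene Htr2c (chrX:146994390-146994508, GRCm38.p6). SNORA50 is known in human cells as a guide of 18S ribosomal RNA.

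The shares of 25 of the 70 detected families differed by more than 2-fold between their highest and lowest library, and the median ratio was 1.76. SNORA8 varied most. It held 0.264%, 0.0175% and 0.0517% in replicates 1, 2 and 3, from 13171, 654 and 2279 counts, a ratio of 15.1 and a CV of 120%. Its rank moved by 27 places, from 41 in replicate 1 to 68 in replicate 2. Without replicate 1 its mean share was 0.0346%, against 0.111% with all 3 libraries. SNORA8 is a guide of 28S ribosomal RNA in human.

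SNORA78, which RefSeq places where the spans of the ribosomal protein gene Rps2 and the non-coding gene Snhg9 overlap, held 0.860%, 0.209% and 0.494% and moved by 23 places. SNORA14, an 18S guide, held 0.283%, 0.115% and 0.430%. Both were lowest in replicate 2, as was SNORA8. SNORA75, inside the nucleolin gene Ncl, went the other way with 0.148%, 0.390% and 0.138%, and without replicate 2 its mean was 0.143% against 0.225%. SNORA19, the most abundant of these 5 and a 28S guide inside Eif3a, held 1.40%, 1.78% and 0.465% and moved by 18 places, lowest in replicate 3. These 5 families had the largest CVs among families of at least 0.1%, from 55.8% for SNORA19 upward.

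No library stood apart for all families at once. The median absolute log2 ratio of shares (1 is 2-fold) was 0.700 for replicates 1 and 2, 0.573 for 1 and 3 and 0.397 for 2 and 3. By this measure replicate 1 was the most distant. Families differing by more than 2-fold numbered 17, 11 and 12 for the same pairs, which does not single it out. Replicate 2 was the highest library for 32 of the 70 families and the lowest for 20, replicate 1 the highest for 18 and the lowest for 37, and replicate 3 the highest for 20 and the lowest for 13. Among the 25 families past 2-fold, replicate 2 was highest for 13 and lowest for 8, and replicate 1 was lowest for 12. Replicate 1 gave the largest shares to the leading families (66.7% to the 10 highest, against 59.5% and 62.3%), so the other families summed to less there.

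**Figure D3:**
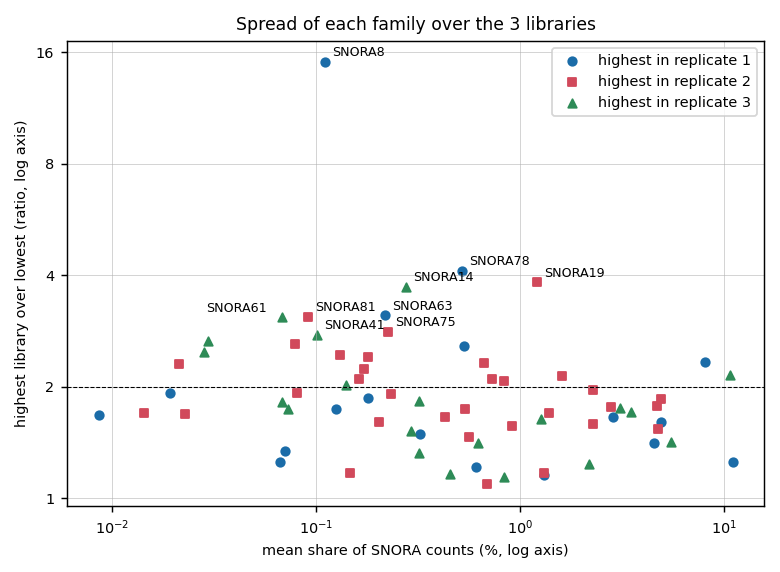
Ratio of the highest to the lowest library (vertical log axis) against mean share of SNORA counts (%, horizontal log axis) for the 70 detected families, with colour and symbol giving the library of highest share. SNORA8 lies at 15.1, while 45 families lie at or below the dashed line at 2.

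The deposited key assigns 357 transcripts to the 72 families, and families with many transcripts were not the most abundant ones. Spearman's rho between the number of transcripts and the mean share was 0.266 over the 70 detected families, too weak to order them by. SNORA17 pools 71 transcripts and held 0.979%, 1.22% and 1.61% in replicates 1, 2 and 3, or 0.0178% per transcript. SNORA70, with 30 transcripts, held 0.622% ± 0.113 (SD, n = 3), and SNORA32, SNORA71 and SNORA42, with 16, 15 and 14, held 0.729% ± 0.274, 0.140% ± 0.0499 and 0.532% ± 0.235. These families lie in the middle of the order, between ranks 21 and 51. The 6 families of 10 or more transcripts had 43.7% of all transcripts in the key and 8.80% ± 1.29 of the counts, of which SNORA73 alone made up 5.51%. Copies within a family cannot be told apart in these values.

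Families with 1 transcript are free of that pooling. The 18 of them held 8.50%, 8.91% and 7.42% of the counts in replicates 1, 2 and 3, with a median family share of 0.182%. SNORA23 led them with 3.09%, 3.38% and 1.91%, ahead of SNORA1 and SNORA22, and these were the 3 single-transcript families among the 20 highest. SNORA23 lies in the span of the importin gene Ipo7 (chr7:110046364-110046547, GRCm38.p6). The 28 families of 2 to 3 transcripts had a median of 0.375%, and the 20 families of 4 to 9 transcripts had a median of 0.998%.

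Dividing each share by the number of transcripts kept 6 of the 10 highest families among the 10 highest. SNORA13 then came first with 3.59% per transcript, followed by SNORA23 with 2.79%, SNORA68 with 2.77%, SNORA28 with 2.28% and SNORA21 with 1.63%. SNORA73 stood at place 19 with 0.551% per transcript over 10 transcripts, and SNORA2 at place 16 with 0.597% over 8. Such a quotient treats all listed transcripts as equally expressed, which the files cannot show.

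**Figure D4:**
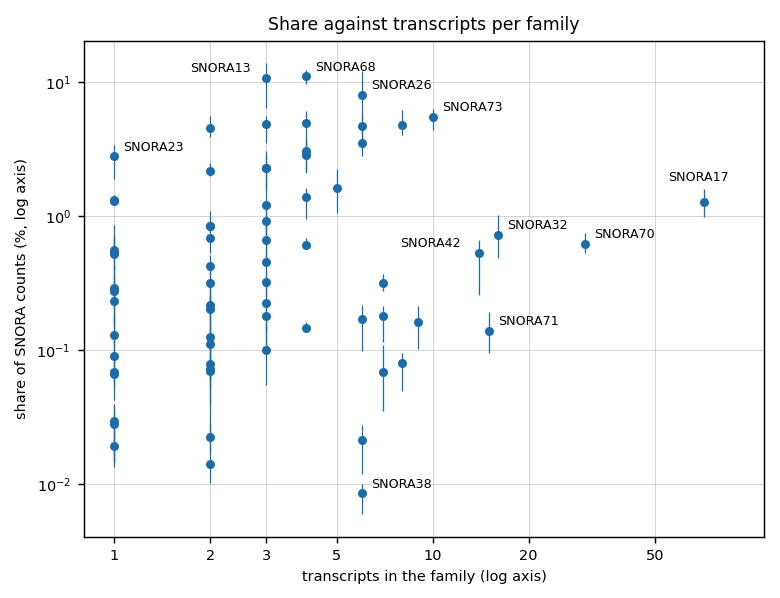
Mean share of SNORA counts (%, vertical log axis) against the number of transcripts in the family (horizontal log axis) for the 70 detected families, with lines from the lowest to the highest library. SNORA17, with 71 transcripts, lies at 1.27%, below SNORA23 with 1 transcript at 2.79%.

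Counts are not divided by transcript length in these shares. For 38 detected families a gene of that symbol with a GENCODE length was found, from 121 to 205 bases. Shares and shares per base gave nearly the same order over these families, with rho 0.993 and moves of at most 4 places. The lengths vary far less than the shares, so a rho near 1 was bound to follow. A length by symbol also stands for all transcripts of a family, and RefSeq can give another one, such as 98 bases for Snora68. SNORA73, whose genes Snora73a and Snora73b are 205 bases long, moved from place 3 to 7 of 38. Its level was 2.69% per 100 bases, against 8.46% for SNORA68 with 131 bases and 3.60% for SNORA28 with 127 bases.

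Families grouped by their listed target covered both ribosomal subunits. The target lists were taken from what is known of the human guides and were not checked for mouse. They may be incomplete, and a family may stand on the wrong list, so the sums below hold for the lists as written. The 22 listed guides of 18S ribosomal RNA held 26.6%, 20.8% and 30.4% of the counts in replicates 1, 2 and 3, a mean of 25.9% ± 4.83 (SD, n = 3), and SNORA50 was the one without counts. Most of that came from SNORA13, SNORA28 and SNORA44, while the median member stood at 0.297%, against 0.375% over all 72 families. The lowest detected 18S guide was SNORA25. The 23 measured of 26 listed guides of 28S ribosomal RNA held 34.7%, 30.8% and 25.1%, a mean of 30.2% ± 4.82. SNORA26, SNORA21 and SNORA9 led this list, SNORA54 (0.0295% ± 0.0130) closed it, and the median member stood at 0.692%. The 28S list lacks SNORA68 (U68), a human 28S guide and the family of highest mean share. With it added, the 24 families held 47.0%, 42.0% and 34.9%, a mean of 41.3% ± 6.08 (SD, n = 3). Other measured families, such as SNORA2, stand on neither list, so this is not a complete share of the 28S guides. The 18S list was above the 28S list in replicate 3 without SNORA68 and below it in all 3 libraries with SNORA68, so their order depends on which families are listed. SNORA73, the only family on the list of precursor cleavage, held 5.51% ± 0.972 by itself.

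Host genes offered another grouping. RefSeq places 39 genes of 38 families on GRCm38.p6, and each lies inside the span of another gene. The table gives spans only, so exon, intron and strand are not stated. The classes of host gene below were formed after the shares were seen and are a description. The 12 families inside ribosomal protein genes held 26.6% ± 1.40 of the counts (26.7%, 27.9% and 25.1% in replicates 1, 2 and 3), with a median of 1.003% and SNORA69, at 0.0143%, as the lowest. SNORA78 (mean 0.521%), in the spans of both Rps2 and Snhg9, was counted in this class only. The 9 families inside Dancr or a gene named as snoRNA host (Snhg) held 19.9% ± 2.98, with a median of 0.692%. The 17 families inside other genes held 16.7% ± 2.59, with a median of 0.233%. A further 34 families had no RefSeq gene of their symbol and held 36.8% ± 4.22, SNORA13 among them.

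Families from 1 host gene differed widely in share. Snhg12 carries Snora16a, Snora44 and Snora61 side by side on chromosome 4 (chr4:132309465-132309600, chr4:132309953-132310069 and chr4:132310307-132310368). SNORA44 held 45.9, 84.1 and 44.3 times the share of SNORA61 in replicates 1, 2 and 3, and SNORA16, at 0.692% ± 0.0300 (SD, n = 3), lay between them with the smallest CV of all families, 4.34%. In Kansl2, SNORA2 held 26.5, 21.1 and 16.2 times the share of SNORA34. In Snhg7, SNORA17 held 2.23, 2.83 and 3.21 times the share of SNORA43, the closest pair here. Each of these families pools several transcripts except SNORA34, so copies elsewhere may add to a share.

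For the other hosts some or all placements came from what is known of the human genes. SNORA29 held 39.6, 29.7 and 23.7 times the share of SNORA20, both hosted by Tcp1, and SNORA4 held 10.8, 17.2 and 35.6 times that of SNORA81, both from Eif4a2. SNORA63, also of Eif4a2, held 0.218% ± 0.108 (SD, n = 3). The 6 families of Taf1d spanned the widest range, with SNORA40 at 134, 219 and 461 times SNORA25. Between them lay SNORA1, SNORA32, SNORA8 and SNORA18, the last at 0.0724% ± 0.0194. Of the families of Tcp1, Eif4a2 and Taf1d, only SNORA81 and SNORA1 have 1 transcript. SNORA40 pools 4 and SNORA25 pools 6, so copies elsewhere may add to these shares too. RefSeq places SNORA78 and SNORA64 in the span of Rps2, and SNORA78 also in that of Snhg9. Whether both come from Rps2 was not tested. The ratio of SNORA78 to SNORA64 was 50.5, 7.26 and 22.1 in replicates 1, 2 and 3, widely apart between libraries. SNORA78 was highest in replicate 1 and lowest in replicate 2, and SNORA64 the reverse.

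**Figure D5:**
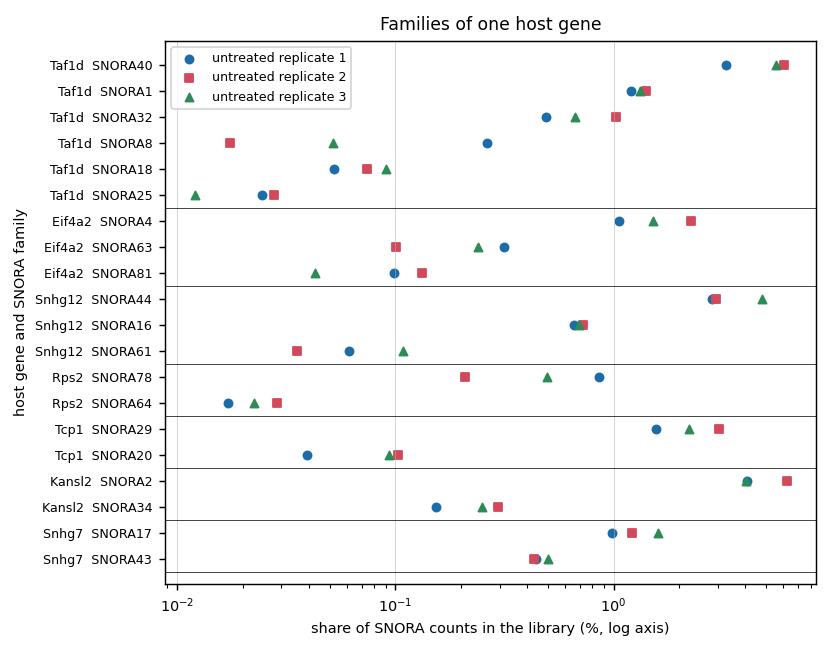
Share of SNORA counts (%, log axis) in each untreated replicate for families assigned to the same host gene, with lines between hosts. SNORA2 and SNORA34 of Kansl2 were both highest in replicate 2. SNORA78 and SNORA64, both drawn under Rps2, ran in opposite order over the libraries, and SNORA78 also lies in the span of Snhg9.

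In 3 of the 38 families with a RefSeq position, a RefSeq microRNA gene overlaps the snoRNA gene, so short RNA from the same place bears another name. Families and copies without a position could not be examined. The 3 families are shown because the libraries hold small RNA, and whether microRNA fragments added to the counts was not tested. The mature microRNAs below are from RefSeq on GRCm38.p6, with the seed (bases 2 to 8) in capitals. The first pair comes from the minus strand at Snora19 (chr19:60774334-60774354 and chr19:60774370-60774391). The second comes from the plus strand inside Snora36b (chr1:185242975-185242995 and chr1:185243012-185243033).
mmu-miR-3084-3p: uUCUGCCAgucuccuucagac
mmu-miR-3084-5p: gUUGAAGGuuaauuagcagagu
mmu-miR-664-5p: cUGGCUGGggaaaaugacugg
mmu-miR-664-3p: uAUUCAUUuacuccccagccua

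The 4 seeds differ from each other. All 21 bases of miR-3084-3p and 16 of the 22 bases of miR-3084-5p fall in the RefSeq interval of Snora19, which at 56 bases is shorter than the 132 bases that GENCODE gives the gene. SNORA19 was one of the families that varied most. SNORA36, with 8 transcripts, held 0.0495%, 0.0955% and 0.0953% in replicates 1, 2 and 3 and was lowest in replicate 1. The Mir1291 hairpin overlaps Snora34 by 73 bases, its mature miR-1291 by 7 of 26, and SNORA34 held 0.233% ± 0.0721 (SD, n = 3).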

How the data were processed

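Small RNA was size-selected, depleted of small ribosomal RNAs, kinase-treated and copied with a template-switching TGIRT enzyme, per the labels' protocols. Tools listed in the submitters' processing notes, with no roles given, are DESeq2 1.18.1, featureCounts 1.5.1, STAR 2.5.1b, Salmon 0.12.0 and bcl2fastq, and the build is mm10. The deposited table holds estimated counts per SNORA family, as whole numbers. The authors' normalised table, a signal scaled by factors that differ between families within a library, was used as an alternative. The deposited key gave the transcripts of each family. Gene lengths came from the deposited RNA-seq table, per its file header.

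Shares were computed in Python 3.11.15 as 100 times a family's count over the library total, averaged over 3 libraries, with no filter. No test was made, since 1 group was described. TMM (edgeR 4.0.16) and DESeq2 1.42.0 size factors, under R 4.3.3, served as alternatives. Calculations were tested on simulated data. RefSeq genes were matched by symbol.

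Named families were the 20 highest, the 5 lowest detected, those at 0, the 5 largest CVs from 0.1% up, the 3 largest rank moves, leading families per transcript and by transcript number, and list and host members. Members and lists were chosen with earlier results of these data known. Snora genes were matched to families by number, so other copies are unplaced. The position of 1 leading family is not reported here.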

Additional observations from a re-analysis of the deposited data

How the results depend on the processing

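No paired analysis was possible because 1 group was described and no test was made. The summed share of the 10 highest families ranged from 60.9% to 64.5% over all alternatives, leave-one-out included, and the number of families at 1% or above from 21 to 23. At least 9 of the 10 highest families stayed among the 10 highest, except per transcript, where 6 did. SNORA68 ranged from 10.01% with the normalised counts to 11.7% without replicate 3. SNORA13 came first without replicate 2 (12.9%) and by the median share (11.9%), and SNORA26 with the normalised counts (11.7%). With SNORA68 left out of the total, the shares of SNORA52, SNORA1 and SNORA22 were higher by more than their SD, at 2.46%, 1.48% and 1.47%, by construction. Shares were recomputed for 25 families, the 20 highest and the 5 of largest CV. Of these values, 4 moved by more than 1 SD (SNORA26 with the normalised counts and the 3 just named) and 245 by less. Many of the 245 could not have moved that far. Leaving out 1 of 3 libraries always shifts a mean by less than 1 SD. A filter of at least 10 counts in every library removed only families at 0. The count of 245 is therefore no measure of stability. With SNORA68 added, the listed guides of 28S ribosomal RNA held 41.3% in place of 30.2%. That list and the correction for length were added after the data were seen. Counting error was largest for the families near 0.01%, and it stayed below the spread between libraries for them too.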
